A study of Mus musculus with 3 samples.

Results

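The genes examined here were 7 mitotic kinases (Aurka, Aurkb, Plk1, Plk4, Ttk, Nek2 and Melk) and the 3 CDC25 phosphatases (Cdc25a, Cdc25b and Cdc25c) of the mouse. They were chosen by name, and all 10 were found among the 21951 protein-coding genes of the GENCODE M21 annotation. For each gene, NF-Y-ChIP and H3K4me3-ChIP peaks that overlapped the gene body or the 5 kb upstream were collected, together with the CCAAT boxes of its promoter. The ChIP-seq series held 3 libraries from E13.5 embryonic brain cortex, 1 of input chromatin, 1 precipitated with an antibody to the NF-YC subunit and 1 with an antibody to H3K4me3. The labels give no strain, genotype or number of embryos, and all cell types of the dissected cortex were mixed. H3K4me3-ChIP peaks lay within 1 kb of a TSS of 6 of 6 cortical marker genes and of 0 of 5 marker genes of other tissues.

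NF-Y is a ubiquitous trimeric transcription factor whose NF-YA subunit contacts CCAAT, and its NF-YB and NF-YC subunits fold like core histones. CCAAT boxes in promoters of genes for G2 and M phase often stand near a cell cycle genes homology region (CHR), an element bound by the DREAM and MuvB complexes. The kinases drive centrosome maturation, spindle assembly and the spindle checkpoint, while CDC25 phosphatases remove inhibitory phosphates from cyclin-dependent kinases. In the embryonic cortex, these proteins act in the dividing progenitors that line the ventricle. H3K4me3 is a histone mark found at the promoters of active genes.

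NF-Y-ChIP peaks were present at 3 of the 10 genes, Aurka, Ttk and Cdc25c, whereas H3K4me3-ChIP peaks were present at all 10. By the same rule, 3.69% of all protein-coding genes had an NF-Y-ChIP peak and 65.4% had an H3K4me3-ChIP peak. Among the 14352 of them marked by H3K4me3, the share with an NF-Y-ChIP peak was 5.60%. The fold enrichment of a peak is its signal at the summit over the local background, as computed by the peak caller. Each antibody had 1 library, so none of these values carries a replicate error and no test between genes was made. The read depth behind the peaks is unknown, so a gene without a peak had no detectable peak in this library.

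The promoter stretches below are shown because they hold the CCAAT boxes nearest the TSS at both printed genes with an NF-Y-ChIP peak and at 3 genes without. They were read from the GRCm38 reference on the strand of each gene, 5′ to 3′, with CCAAT or its complement ATTGG in capitals. Positions were counted from the TSS of the principal transcript, which is position 0.
Aurka (peak), chr2:172370536-172370676, minus strand, −170 to −30: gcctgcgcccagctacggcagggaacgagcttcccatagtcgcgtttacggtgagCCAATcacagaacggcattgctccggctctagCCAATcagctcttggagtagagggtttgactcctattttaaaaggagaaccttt
Ttk (peak), chr9:83834548-83834688, plus strand, −170 to −30: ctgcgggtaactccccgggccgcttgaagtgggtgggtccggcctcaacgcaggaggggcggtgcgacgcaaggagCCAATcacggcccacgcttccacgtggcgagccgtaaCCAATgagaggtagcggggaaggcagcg
Aurkb (no peak), chr11:69045482-69045646, plus strand, −170 to −6: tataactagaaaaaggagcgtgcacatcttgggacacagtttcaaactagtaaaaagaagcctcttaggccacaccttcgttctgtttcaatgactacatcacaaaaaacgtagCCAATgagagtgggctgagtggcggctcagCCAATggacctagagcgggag
Plk1 (no peak), chr7:122159319-122159438, plus strand, −120 to −1: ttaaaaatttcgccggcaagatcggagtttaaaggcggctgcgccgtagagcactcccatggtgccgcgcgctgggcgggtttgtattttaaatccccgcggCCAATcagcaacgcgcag
Cdc25a (no peak), chr9:109875409-109875578, plus strand, −170 to −1: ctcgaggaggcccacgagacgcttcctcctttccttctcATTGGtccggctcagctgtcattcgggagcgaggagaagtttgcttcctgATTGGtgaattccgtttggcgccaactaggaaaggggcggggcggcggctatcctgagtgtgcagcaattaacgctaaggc

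Aurka and Ttk each had 2 boxes on the sense strand, and both boxes of each gene lay inside its NF-Y-ChIP peak. The boxes of Aurka began at −115 and −83, a spacing of 32 bp from first base to first base. Those of Ttk began at −94 and −57, with a spacing of 37 bp. In Aurkb, the downstream pair at −56 and −26 was spaced by 30 bp, but no NF-Y-ChIP peak was called there. Plk1 had a single box at −18, and Cdc25a had a pair of inverted boxes at −131 and −81 with a spacing of 50 bp.

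**Figure D1:**
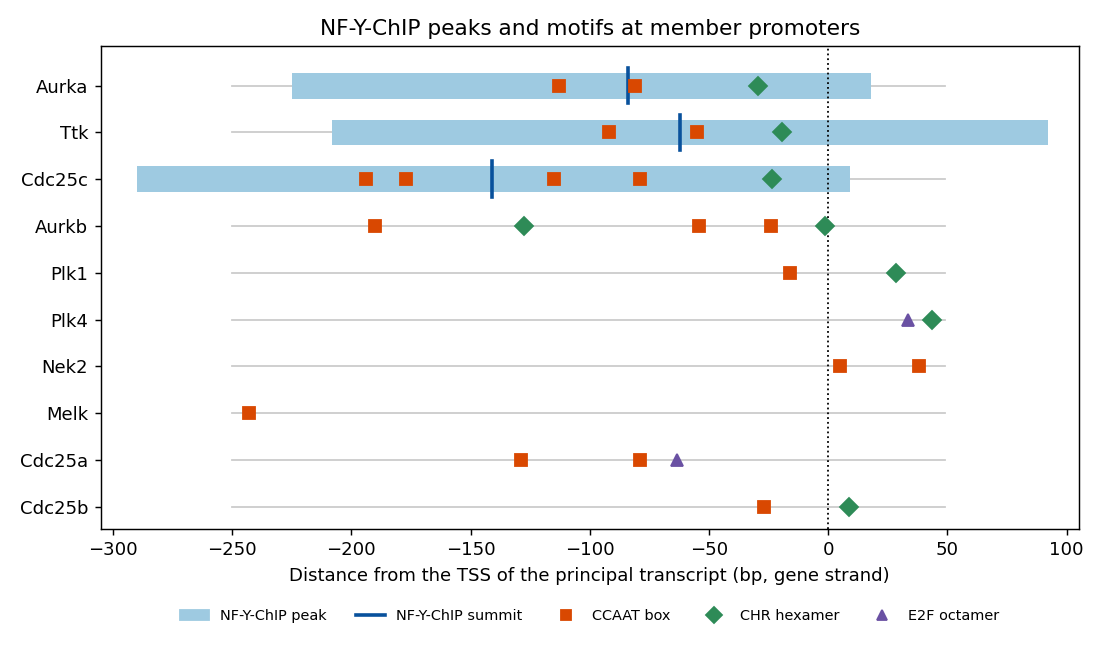
NF-Y-ChIP peaks (blue bars) and summits (dark blue lines) with CCAAT boxes, CHR hexamers and E2F octamers at the 10 genes, drawn by distance in bp from the TSS of the principal transcript; grey lines span the searched window. Bars appear at 3 genes, Aurka, Ttk and Cdc25c, each with at least 2 boxes and a CHR hexamer nearer to the TSS than the boxes.

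Among the kinases, Ttk had the stronger of the NF-Y-ChIP peaks. Ttk, also called Mps1, is the kinase that starts spindle checkpoint signalling at unattached kinetochores. Its peak (chr9:83834510-83834810, 301 bp) had a fold enrichment of 15.0, which placed it at rank 50 of 733 NF-Y-ChIP peaks, with −log10 p of 39.3 and −log10 q of 33.5. The summit at 83834656 lay 33 bp upstream of the nearest TSS of Ttk and 62 bp upstream of that of its principal transcript, 7 bp from the centre of the nearer CCAAT box. No TSS of another gene lay within 1 kb of this summit, and Ttk was the only gene to which the rule assigned the peak.

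The NF-Y-ChIP peak of Aurka was weaker. Aurka encodes Aurora A, the kinase of centrosome maturation and spindle pole assembly. The peak (chr2:172370488-172370731, 244 bp) had a fold enrichment of 7.63 and rank 279, with −log10 p of 16.7 and −log10 q of 11.6. It was above the list's median fold enrichment of 6.75, and 37.9% of the NF-Y-ChIP peaks were stronger. Its summit at 172370590 was 55 bp upstream of the nearest Aurka TSS and 84 bp upstream of that of the principal transcript, 3 bp from the centre of the nearer box. The promoter is divergent, with the nearest TSS of Cstf1, a gene of mRNA 3′ end processing, −91 bp away, negative here meaning that the summit lay upstream of Cstf1 as well. The rule gave the same peak to both genes, and which of them it concerns cannot be told apart.

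Cdc25c, whose product activates CDK1 at entry into mitosis, had the NF-Y-ChIP peak of highest fold enrichment among the 10 genes. With no replicate library, its order relative to the close value of Ttk cannot be separated from error. The peak (chr18:34751524-34751823, 300 bp) had a fold enrichment of 15.7 and rank 41, with −log10 p of 46.1 and −log10 q of 40.1. The summit at 34751674 lay 141 bp upstream of the TSS. It held 4 boxes, at −196, −179, −117 and −81, of which those at −196, −117 and −81 were inverted and that at −179 was on the sense strand. The distances between neighbouring boxes were 17, 62 and 36 bp. The summit fell 26 bp from the centre of the box at −117, further than the summits of Aurka and Ttk from their boxes. A lincRNA, 2010110K18Rik, started on the other side at −135 bp from the summit, so that the rule also assigned this peak to both transcription units. Which of them the peak concerns cannot be told apart. Peaks of the other CDC25 genes were restricted to H3K4me3-ChIP.

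**Figure D2:**
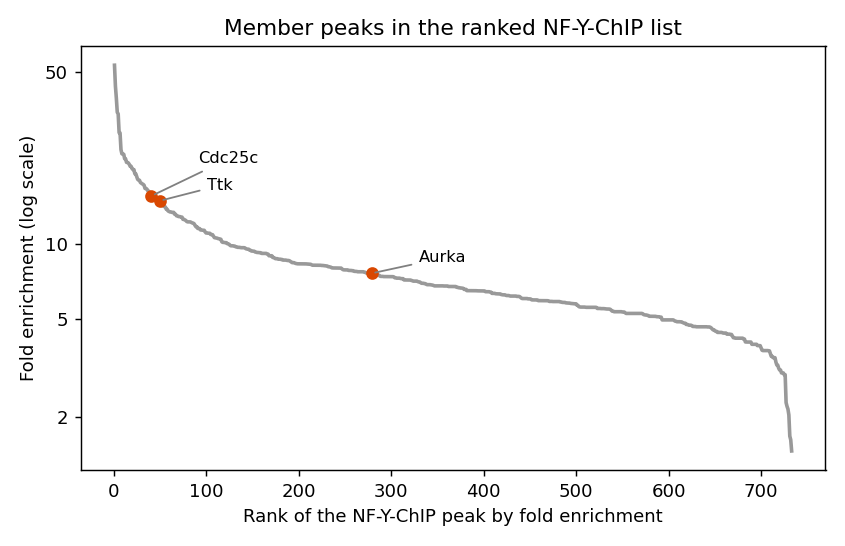
Fold enrichment of all 733 NF-Y-ChIP peaks on a log scale against their rank (grey line), with the peaks of the 3 genes in orange. Cdc25c at rank 41 and Ttk at rank 50 are in the steep upper part of the curve, and Aurka at rank 279 is on its flat middle part.

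Across the protein-coding genes with an NF-Y-ChIP peak, the median fold enrichment of the strongest peak per gene was 6.79 (n = 810, quartiles 5.48 and 8.75). The values of Ttk and Cdc25c were above the upper quartile, and that of Aurka was between the median and the upper quartile. The median of the 3 genes was 15.0.

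The 7 genes without an NF-Y-ChIP peak were far from the nearest NF-Y-ChIP summit. The closest was that at 56129 bp downstream of the Cdc25a TSS, with a fold enrichment of 12.6, which lay 92 bp from a TSS of Map4. For Aurkb the nearest summit was 77550 bp away at Slc25a35 and for Nek2 it was 85160 bp away at Slc30a1. The other nearest summits were 259292 bp from Plk4 at Intu, 644401 bp from Melk at Hint2, 1177076 bp from Plk1 at Cdr2 and 1386464 bp from Cdc25b at Stk35. None of the 7 genes was thus close to the 5 kb limit, and no member gained a peak when the limit was set at 50 kb.

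CCAAT boxes alone did not separate the genes with a peak from those without. Within the window from 250 bp upstream to 50 bp downstream of the TSS, 9 of the 10 promoters held CCAAT or ATTGG, compared with 38.6% of all protein-coding promoters. At least 2 boxes were found at 6 of the 10, compared with 12.3% of all. These 6 were Aurka, Ttk and Cdc25c with a peak, and Aurkb, Nek2 and Cdc25a without. A longer NF-Y consensus (a purine pair before CCAAT, then C or G and a purine, either strand) matched at 7 of the 10, compared with 12.1% of all. Both boxes of Aurka, both boxes of Ttk and 3 of the 4 boxes of Cdc25c matched it. Among the genes without a peak it was matched by 2 of the 3 boxes of Aurkb, the box of Plk1 and 1 box each of Nek2 and Cdc25a.

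The positions of the boxes also varied among the genes without a peak. Nek2, which encodes the kinase of centrosome separation, had boxes downstream of its TSS at +3 and +36, a spacing of 33 bp. Aurkb, the kinase of the chromosomal passenger complex, had an upstream box at −192 in addition to the pair described above. Melk, a kinase of proliferating progenitors, had a single box at −245, close to the upstream end of the window. Cdc25b, which acts at the centrosome before mitosis, had a single inverted box at −29. Plk4, the kinase of centriole duplication, had none. A spacing of 30 to 40 bp between neighbouring boxes was present in all 3 genes with a peak, and in Aurkb and Nek2 among those without. It was present in 542 of the 14352 H3K4me3-marked protein-coding genes, and the interval was chosen after the boxes of the 3 genes with a peak were seen.

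The other motifs of cell cycle promoters were searched in the same window. The CHR hexamers (TTTGAA and its complement TTCAAA, and TTCGAA) were found at 7 of the 10 genes, compared with 17.2% of protein-coding promoters. All 3 genes with an NF-Y-ChIP peak had a CHR hexamer between the last box and the TSS, at −32 in Aurka, −22 in Ttk and −26 in Cdc25c. The hexamers of Aurka and Ttk are shown in capitals, on the strand of the gene to show the letters in their context. From the first base of the last box to that of the hexamer, the distance was 51 bp in Aurka, 35 bp in Ttk and 55 bp in Cdc25c.
Aurka, chr2:172370523-172370548, minus strand, −42 to −17: aaggagaaccTTTGAAttgtaacggc
Ttk, chr9:83834686-83834711, plus strand, −32 to −7: gcggggaaatTTCAAAcgtgtttccg

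Among the 7 genes without a peak, 4 had a CHR hexamer. Aurkb had the same order as the genes with a peak, with hexamers at −130 and, after its last box, at −4, and Plk1, Plk4 and Cdc25b had them downstream of the TSS at +26, +41 and +6. An E2F octamer (TTTGGCGC, TTTCGCGC or TTCCCGCC, either strand) was found at 2 of the 10 genes, at +30 in Plk4 and at −67 in Cdc25a, compared with 3.94% of all. Neither of these had an NF-Y-ChIP peak. Such matches describe the letters in the window and are not sites of measured binding.

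To place the genes without a peak, all H3K4me3-marked protein-coding genes were grouped by the number of boxes in the window. Boxes were counted at the principal TSS only, whereas a peak anywhere in the gene or its 5 kb upstream was counted. A counted peak may therefore lie outside the window. An NF-Y-ChIP peak was present at 2.0% of 8951 genes with 0 boxes, 5.52% of 3480 genes with 1, 16.2% of 1268 genes with 2 and 34.6% of 653 genes with 3 or more. The Wilson 95% confidence intervals, which cover counting error only, were 14.3 to 18.4% for 2 boxes and 31.1 to 38.3% for 3 or more. These intervals treat genes as independent, although neighbours such as Aurka and Cstf1 can share a peak, so they may be too narrow. Aurkb and Cdc25c thus shared the class in which peaks were most frequent, and Aurka, Ttk, Nek2 and Cdc25a shared the class of 2 boxes. In each of these classes, most genes had no NF-Y-ChIP peak.

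**Figure D3:**
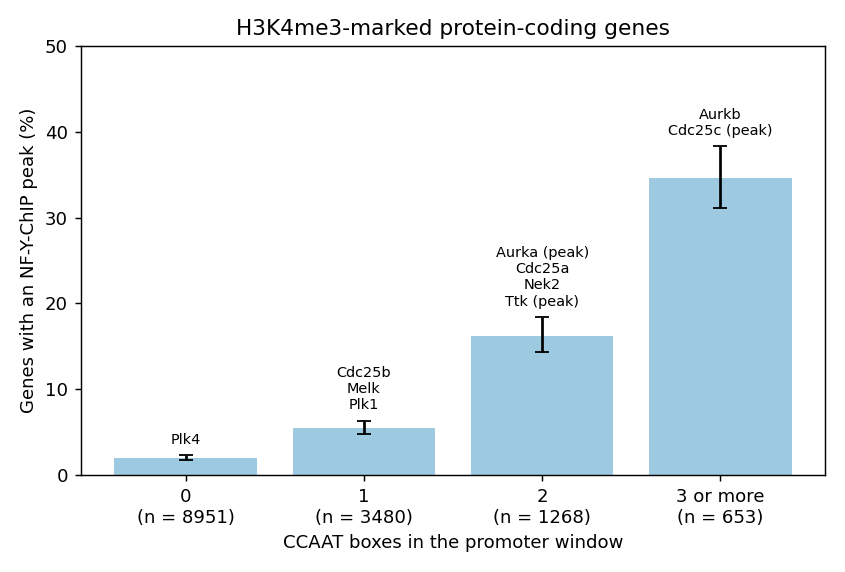
Percentage of H3K4me3-marked protein-coding genes that had an NF-Y-ChIP peak in the gene or its 5 kb upstream, by the number of CCAAT boxes in the promoter window. Error bars are Wilson 95% confidence intervals and n is the number of genes. The share rose from 2.0% with 0 boxes to 34.6% with 3 or more, and the genes with and without a peak are named above the class they belong to.

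Spacing and CHR hexamers were examined in the same genes. The interval of 30 to 40 bp was chosen after the boxes of the genes with a peak were seen. Aurka and Ttk are counted in its class, so its shares are a description and not a test of spacing. Of 252 genes with exactly 2 boxes spaced by 30 to 40 bp, the class of Aurka, Ttk and Nek2, 22.6% had an NF-Y-ChIP peak (95% confidence interval 17.9 to 28.2%). Of 1016 genes with exactly 2 boxes at another spacing, the class of Cdc25a, the share was 14.7% (12.6 to 17.0%). With a CHR hexamer beside at least 2 boxes, as in Aurka, Ttk, Cdc25c and Aurkb, 25.3% of 304 genes had a peak (20.8 to 30.5%). Without it the share was 22.0% of 1617 genes (20.0 to 24.0%), and the intervals overlapped. Plk4 belonged to the 1050 genes with a CHR hexamer and 0 boxes, of which 1.9% had a peak. By position, the share with a peak among genes with a box in a given stretch was 13.4% for −250 to −201 (Melk), 15.3% for −200 to −151, 16.8% for −150 to −101 and 17.7% for −100 to −51. It was 19.5% for −50 to −1, the stretch of Aurkb, Plk1 and Cdc25b, which had no peak, and 10.9% for 0 to +49, the stretch of Nek2. Genes with several boxes entered several of these stretches. Among genes with exactly 1 box, as in Melk, Plk1 and Cdc25b, the lowest share was 3.75% (2.49 to 5.62%) for −150 to −101. The highest was 8.36% (6.49 to 10.7%) for −50 to −1, the stretch of Plk1 and Cdc25b. These stretches were picked as the extremes after the values were seen, so their intervals are not a test of position. The stretch from 0 to +49 had 4.43% (2.66 to 7.3%), and its interval overlapped both.

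H3K4me3-ChIP peaks stood at the TSS of both kinases and phosphatases. The strongest peaks had a median fold enrichment of 46.0, ranging from 20.1 at Cdc25c to 61.4 at Melk, and 8 of the 10 were above the median of 40.1 over all 14352 protein-coding genes with such a peak. The genes with and without an NF-Y-ChIP peak overlapped in this value, with a median of 45.0 (20.1 to 46.5) in the 3 with a peak and 49.5 (26.2 to 61.4) in the 7 without. Cdc25c therefore had the highest NF-Y-ChIP fold enrichment of the set, close to that of Ttk, and the lowest H3K4me3-ChIP fold enrichment.

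**Figure D4:**
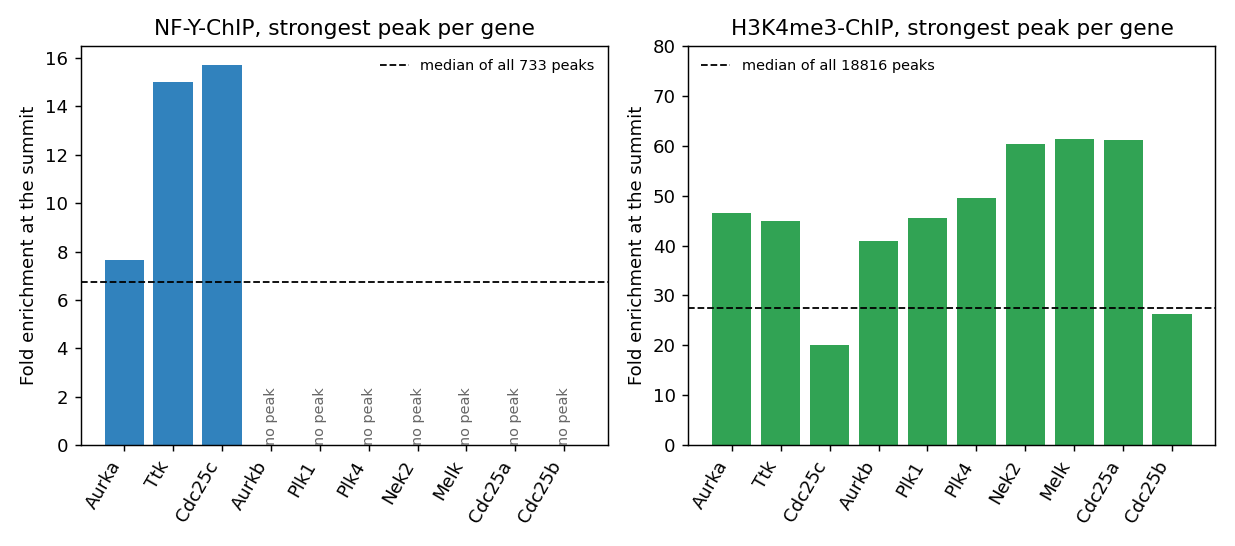
Fold enrichment at the summit of the strongest NF-Y-ChIP peak (left) and H3K4me3-ChIP peak (right) of each gene, from 1 library each, with the median of all peaks of that list as a dashed line (6.75 and 27.5). NF-Y-ChIP bars are present for 3 genes, and all but Cdc25b (26.2) and Cdc25c (20.1) exceed the H3K4me3-ChIP median.

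The kinases had H3K4me3-ChIP fold enrichments between 40.9 and 61.4. Melk (61.4, chr4:44300708-44301868) and Nek2 (60.4, chr1:191820972-191822340) were the highest, with ranks 1617 and 1735 of 18816. Plk4 followed with 49.5 (chr3:40799527-40801098), then Aurka with 46.5 (chr2:172369510-172371823), Plk1 with 45.6 (chr7:122158191-122160889), Ttk with 45.0 (chr9:83833910-83835707) and Aurkb with 40.9 (chr11:69045315-69046742). Plk1, which acts from mitotic entry to cytokinesis, had the widest of these peaks at 2699 bp, and Melk had the narrowest at 1161 bp. With no replicate library, the order of neighbouring values such as those of Aurka, Plk1 and Ttk cannot be separated from error.

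Of the phosphatase genes, only Cdc25a reached the level of Melk and Nek2. Its H3K4me3-ChIP peak (chr9:109875309-109877381) had a fold enrichment of 61.2 and rank 1631. The values of Cdc25b (26.2, chr2:131186576-131187817) and Cdc25c (20.1, chr18:34750578-34752313) were below the list's median of 27.5, at ranks 9753 and 11288.

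The summit of H3K4me3 lay downstream of the principal TSS in 8 of the 10 genes, from +99 in Ttk to +491 in Cdc25a. The share over all marked genes is not given here. Most relatives and partners examined below also had the summit of their strongest peak downstream, so this position is not particular to the 10 genes. In Aurka it lay upstream at −789, in an intron of Cstf1 and 561 bp downstream of the nearest of the TSSs of that gene. In Plk1 it lay at −368, in an exon of the antisense gene Gm15489. The summits of Nek2 and Cdc25b lay in exons that overlap another gene, the antisense Gm38037 and the protein-coding Spef1, whose TSS was 84 bp from the summit. In each of the 3 genes with an NF-Y-ChIP peak, the NF-Y-ChIP summit was inside the H3K4me3-ChIP peak. The H3K4me3-ChIP summit was 161 bp downstream of the NF-Y-ChIP summit in Ttk and 279 bp in Cdc25c, and in Aurka it was at −705 bp, on the Cstf1 side.

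Aurkb was the only gene with more than 1 H3K4me3-ChIP peak by the rule. Besides the peak at its TSS, a peak at chr11:69041081-69041843 had a fold enrichment of 11.9 and its summit at −3984. Another at chr11:69039519-69041020 had a fold enrichment of 40.6, close to that at the Aurkb TSS. Its summit at −5545 was outside the limit, and only its edge was within 5 kb of the gene. Both summits were outside annotated genes, and no annotated TSS lay within 1 kb of either.

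Relatives and partners of the 10 genes were examined by the same rule, for which the shares over all protein-coding genes were 3.69% for an NF-Y-ChIP peak (5.60% of H3K4me3-marked genes), 65.4% for an H3K4me3-ChIP peak, 38.6% for a CCAAT box, 12.3% for at least 2 boxes and 17.2% for a CHR hexamer. With lists of 9 to 14 genes, counts of 0 or 1 NF-Y-ChIP peaks are near these shares. Of 14 paralogs (Aurkc, Plk2, Plk3, Plk5 and 10 Nek genes), 0 had an NF-Y-ChIP peak, 11 had an H3K4me3-ChIP peak, 5 had a CCAAT box, 0 had at least 2 and 3 had a CHR hexamer. The 3 without H3K4me3-ChIP peaks were Aurkc, Nek10 and Plk5. The median H3K4me3-ChIP fold enrichment of the other 11 was 47.0, close to the 46.0 of the mitotic genes.

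Among 13 other kinases of mitosis and its checkpoints, 1 had an NF-Y-ChIP peak, compared with 3.69% of all protein-coding genes. This was Cit, which encodes citron kinase of the cytokinetic midbody. Its peak (chr5:115845072-115845359) had a fold enrichment of 16.7 and rank 36, above those of Cdc25c and Ttk, with the summit at −74 from the nearest Cit TSS. The summit was at −440 from the principal TSS of Cit and thus outside the searched window, which held fewer than 2 boxes. At least 2 boxes were present at Bub1, Cdk1, Pkmyt1 and Wee1, none of which had an NF-Y-ChIP peak. All 13 had an H3K4me3-ChIP peak, with a median fold enrichment of 50.6, and 7 had a CHR hexamer, compared with 17.2% of all protein-coding promoters.

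Among 9 partners and regulators of the kinases, 1 had an NF-Y-ChIP peak, against the same 3.69%. This was Cdca8, which encodes Borealin, a partner of Aurora B in the chromosomal passenger complex. The peak (chr4:124936815-124937053) had a fold enrichment of 7.89 and rank 249, near the value of Aurka, with its summit at −24 from the Cdca8 TSS and −107 from a TSS of the divergent gene 9930104L06Rik. Of the other subunits of the Aurora B complex, Incenp, like Aurkb itself, had at least 2 boxes and no NF-Y-ChIP peak. The same was true of Bora, Cep152, Ensa and Stil. Birc5, another subunit of the Aurora B complex, had no NF-Y-ChIP peak either, but fewer than 2 boxes. All 9 had an H3K4me3-ChIP peak, with a median fold enrichment of 38.3, and 3 had a CHR hexamer.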

How the data were processed

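ChIP-seq was performed on E13.5 cortices with 1 library each of input, NF-Y-ChIP and H3K4me3-ChIP. Reads were trimmed by the authors (Trimmomatic) and aligned to mm10, which is GRCm38 (Bowtie2 2.2.8, per the submitters' processing notes). MACS2 2.1.2 was used to call peaks. The authors' limit for NF-Y-ChIP was a peak p-value of 0.001, and that for H3K4me3-ChIP was a q-value of 0.05. Per the authors, the input was the negative control of the ChIP, but their account of the MACS2 step names no control file. The deposited lists give peak positions on mm10, the fold enrichment at the summit (a ratio), the −log10 of the p-value and q-value, and a score. Rounded down, 10 times the −log10 p-value equalled the deposited score in all 733 peaks of 1 list, and 10 times the −log10 q-value did so in all 18816 of the other, which identified them as NF-Y-ChIP and H3K4me3-ChIP. Read counts were not analysed here, so depth is unknown and values were used as deposited.

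A peak belonged to a gene when it overlapped the gene or its 5 kb upstream (GENCODE M21) by 1 bp. The principal transcript was that with the best APPRIS tag, then the best support level, then the most upstream TSS. Motifs were searched on both strands from 250 bp upstream to 50 bp downstream of its TSS in the GRCm38 RefSeq sequence, in 21938 promoters. No promoter sequence of Cdc25c is printed. The genes, lists and tests were chosen with earlier results of these data known. The genes named from the lists were those with an NF-Y-ChIP peak, and others are named after their values were seen. Alternatives covered peak thresholds, the gene rule, the promoter window, the motif and the TSS. The gene rule, the distances and the motif search were tested on simulated data, and each gave the right answer in 1000 of 1000 cases. The analysis used Python 3.11.15, NumPy 2.4.6, pandas 2.3.3, pysam 0.24.0 and matplotlib 3.10.9.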

Additional observations from a re-analysis of the deposited data

How the results depend on the processing

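The count of 3 genes with an NF-Y-ChIP peak was the same under all 6 alternatives, which required q < 0.05, at least the median fold enrichment, the summit in the gene or its 5 kb upstream, the summit within 1 kb of a TSS, or an upstream limit of 1 or 50 kb. The 10 genes with an H3K4me3-ChIP peak became 8 when peaks below the median fold enrichment were left out. The 9 genes with a CCAAT box became 7 with the window from −150 to the TSS and 7 with the longer consensus. The longer consensus matched 12.1% of all protein-coding promoters. For the H3K4me3-ChIP fold limit and the window from −150, the share of all protein-coding genes is not given here, so those counts have no background. The share of protein-coding genes with an NF-Y-ChIP peak was 3.17% for summits within 1 kb of a TSS and 5.60% among genes with an H3K4me3-ChIP peak. From the TSS of the principal transcript, in place of the nearest TSS, the NF-Y-ChIP summit lay at −84 in Aurka and −62 in Ttk. No paired analysis was possible because each antibody has 1 library. For the same reason no replicate could be left out, and the absence of a peak may depend on depth, which is unknown.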
